A study of Mus musculus with 48 samples.

Results

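The 31 genes described here encode the enzymes and carriers that take up glucose, split it to pyruvate, exchange lactate and store or release glycogen. They were chosen by symbol from the first column of 6 tables of normalised read counts, and 31 of 31 were present among 24421 gene entries. The tables cover 48 RNA-seq libraries in 16 groups of 3, made from cells of mouse olfactory bulb, cortex and hippocampus that were purified by fluorescence-activated cell sorting. In 12 groups the mice had the genotype Aldh1l1-GFP, a reporter that marks astrocytes, and the treatment Gq-Saline or Gq-CNO. Each of these treatments was sampled in each region as 2 sorts, titled GFP astrocytes and mCh neurons. CNO is clozapine-N-oxide, a ligand used to activate engineered Gq-coupled receptors, and the labels do not say which cells carried the receptor. A further 2 groups were GFP astrocytes of Aldh1l1-GFP olfactory bulb given CNO-control or left untreated. The last 2 groups were mCh astrocytes of olfactory bulb from mice of genotype Slc22a3-FF, given Gfap-mCh (the control, here called flox control) or Gfap-Cre (Slc22a3-cKO). All 6 of those libraries therefore share the Slc22a3-FF alleles, and the Gfap promoter named in the labels sets which cells can carry Cre. Age, sex and strain were not among the labels used here. The labels do not state whether the 3 libraries of a group were separate animals. The p-values therefore reflect library-to-library spread, part or all of which may be technical.

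The libraries held 228048 to 24664376 reads over genes, and the 3 shallowest, all of cortex, had 228048, 325129 and 695264. Levels are given on a reads-per-million scale (RPM), computed from reads recovered out of the normalised values. The GFP sort was rich in astrocyte markers: 16 astrocyte genes summed to 54819.9 to 130819 RPM in the 18 GFP libraries of the Gq groups, against 5353 to 23552 RPM in the 18 mCh libraries. The label mCh neurons fitted its markers less well. There 11 neuron genes summed to 1787 to 5189 RPM, 8 oligodendrocyte genes to 18277 to 60108 RPM and 12 microglia genes to 4688 to 15382 RPM. In the 6 mCh astrocyte libraries astrocyte genes summed to 1951 to 13804 RPM and microglia genes to 4756 to 14269 RPM. The sorts are therefore called GFP and mCh here. Of the GFP libraries, the cortex Gq-Saline library numbered 4 stood apart, with 3066 RPM of microglia markers, 3209 of oligodendrocyte markers and 1562 of immediate early genes. The other 17 GFP libraries of the Gq groups had 92.1 to 902.5, 749 to 1789.9 and 51.9 to 193 RPM of these. Among the levels given below for the 18 GFP libraries, it sets the highest of Slc2a1 and Slc16a1 and the lowest of Ldhb and Pygb. In pooled sorted cells, fewer cells of a type and less RNA per cell cannot be told apart.

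Glycolysis splits glucose into pyruvate in a fixed series of steps. Hexokinase traps the sugar, phosphofructokinase sets the pace, aldolase cuts the carbon chain, and pyruvate kinase closes the series. Lactate dehydrogenase converts pyruvate to lactate and back, and monocarboxylate carriers move lactate across membranes. In the brain, glycogen is held mainly in astrocytes, and lactate made there is one fuel that neurons can take up. Many of these steps exist as isoenzymes from separate genes, so a tissue can run the same step with different family members.

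Promoters of 3 members are printed because these genes had some of the largest differences between the sorts, in opposite directions. Hk2 (chr6:82725025-82774454, minus strand) encodes hexokinase 2, Pygm (chr19:6384399-6398459, plus strand) the muscle form of glycogen phosphorylase, and Ppp1r3c (chr19:36731731-36736653, minus strand) a protein that brings protein phosphatase 1 to glycogen. Each sequence runs 5′ to 3′ and ends at the base before the annotated start of the gene, from RefSeq on build GRCm38.p6. The Hk2 window is chr6:82774455-82774704 (minus strand), the Pygm window chr19:6384158-6384398 (plus strand) and the Ppp1r3c window chr19:36736654-36736854 (minus strand). Capitals mark every match of ACGTG on either strand, which reads CACGT on the other strand; these letters are the core bound by hypoxia-inducible factors, and they also lie inside CACGTG.
Hk2: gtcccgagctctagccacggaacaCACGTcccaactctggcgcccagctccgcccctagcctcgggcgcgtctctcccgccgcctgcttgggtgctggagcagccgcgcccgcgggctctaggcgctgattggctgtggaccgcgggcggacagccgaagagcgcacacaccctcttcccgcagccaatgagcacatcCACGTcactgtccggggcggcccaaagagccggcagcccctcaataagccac
Pygm: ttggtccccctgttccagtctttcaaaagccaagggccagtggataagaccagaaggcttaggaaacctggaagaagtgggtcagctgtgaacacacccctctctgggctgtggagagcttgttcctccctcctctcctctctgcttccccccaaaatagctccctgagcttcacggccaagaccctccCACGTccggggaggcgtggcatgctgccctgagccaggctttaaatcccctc
Ppp1r3c: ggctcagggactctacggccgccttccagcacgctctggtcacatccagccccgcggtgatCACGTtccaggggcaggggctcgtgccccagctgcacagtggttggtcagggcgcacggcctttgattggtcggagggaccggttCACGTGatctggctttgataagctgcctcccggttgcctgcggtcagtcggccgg
Only the first-listed promoter entry of each gene was counted, over the 250 bases before its start. This window held the letters in 16 of the 30 members with a promoter entry (53.3%). The share was 22.1% over 8106 first-listed promoters of genes with a mean of at least 5 RPM, and 16.6% over all 27025 first-listed promoters. The 16 were Hk2, Pfkm, Pfkfb2, Pfkfb3, Pgk1, Pgam1, Ldha, Slc2a1, Slc16a1, Slc16a3, Pygb, Pygm, Pygl, Ugp2, Ppp1r3c and Pdk2. Entries listed later held the letters for Aldoa and Pkm as well. The Ldha window had 5 matches, the Ppp1r3c window 3, the Hk2 window 2 and the Pygm window 1. CACGTG counts as 2 matches, 1 on each strand, as in the Ppp1r3c window. No annotated transcript start was found in that Ldha entry, nor in the first-listed entries of Pgam1 and Ugp2. The Ldha entry listed next, where one was found, had 0 matches. The Ugp2 entry listed next, where none was found, had 0 matches as well. Some later entries of Pfkm, Pfkfb2 and Pdk2 also had 0 matches. These are matches of letters only. They occurred in members called higher in the GFP sort, such as Pygm and Ppp1r3c. Of the members called lower, Hk2 had them, Eno2 did not and Slc16a7 had no promoter entry.

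Levels in the 36 libraries of the Gq groups are taken by role, from glucose entry to glycogen. The glucose carrier Slc2a1 (GLUT1) had 28.2 to 185 RPM in the 18 GFP libraries (median 91.2) and 4.31 to 220 RPM in the 18 mCh libraries (median 51.3). Hexokinase 1 (Hk1) had medians of 65.0 RPM in GFP and 55.7 RPM in mCh. Hexokinase 2 had 0 to 10.4 RPM in GFP (median 2.41) and 32.9 to 103 RPM in mCh (median 68.7). The sorts overlapped for Slc2a1 and Hk1, and for Hk2 every mCh library lay above every GFP library. Of the phosphofructokinases, Pfkm had 119 to 354 RPM in GFP (median 230) against 12.1 to 167 RPM in mCh (median 35.9). Pfkp, the platelet form, had medians of 91.6 and 36 RPM in that order, and Pfkl, the liver form, 19.8 and 7.97 RPM. Pfkfb2 and Pfkfb3 make fructose 2,6-bisphosphate, the activator of phosphofructokinase, and had GFP medians of 38.1 and 36.6 RPM against mCh medians of 23.1 and 21.7 RPM. Glucose phosphate isomerase (Gpi1) and triosephosphate isomerase (Tpi1) had GFP medians of 264 and 126 RPM.

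Aldolase C (Aldoc, chr11:78322968-78327781, plus strand), a brain isoenzyme long used to mark astrocytes, was the most abundant member in the GFP sort. It had 4049 to 6543 RPM in the 18 GFP libraries (median 5128) and 217 to 1543 RPM in the 18 mCh libraries (median 477), with no overlap. Per kilobase of transcript its GFP median was 1723 RPM. On that scale the next members were Ldhb (518), Gapdh (432), Pgam1 (244), Ppp1r3c (183) and Pygb (159). Aldolase A (Aldoa), the form found in most tissues, had a GFP median of 335 RPM and an mCh median of 218 RPM.

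Of the later steps, Gapdh (glyceraldehyde-3-phosphate dehydrogenase) had a GFP median of 800.4 RPM and Pgam1 (phosphoglycerate mutase) one of 433 RPM. Pkm (pyruvate kinase) had 227 RPM and Pgk1 (phosphoglycerate kinase) 196 RPM. Their mCh medians were 338, 206, 123 and 90.6 RPM in the same order. Gapdh, Pgam1, Pkm and Pgk1 are uncertain as levels because they share sequence with other genes: 82.5%, 41.5%, 34.4% and 68.0% of their 50-base words also occur elsewhere in the annotated transcripts. For Eno1 (enolase 1) that share was 72.2%. Lower shares that also limit levels were 27.0% for Ldhb, 25.3% for Gpi1, 25.1% for Pfkfb2, 17.1% for Pfkp and 16.6% for Ldha. Eno1 was listed at 1.09 to 21.5 RPM in GFP, while the entry Eno1b had 140 to 344 RPM, so the enolase 1 level cannot be read from Eno1 alone. Eno2, the enolase typical of neurons, had a GFP median of 10.8 RPM and an mCh median of 29.8 RPM.

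Of the genes for lactate and pyruvate, Ldhb (chr6:142490249-142507957, minus strand), whose subunit favours lactate oxidation, had 392 to 1032 RPM in GFP (median 813) and 160 to 506 RPM in mCh (median 299). Ldha, whose subunit favours lactate formation, had medians of 162 and 91.6 RPM in GFP and mCh. The carrier Slc16a1 (MCT1) had 9.98 to 215 RPM in GFP and 0 to 45.4 RPM in mCh, and Slc16a7 (MCT2), the high-affinity carrier known from neurons, had medians of 1.21 and 12.6 RPM. Slc16a3 (MCT4), described in astrocytes, was at or near 0: its highest GFP library had 0.472 RPM and its highest mCh library of the Gq groups 6.52 RPM. Pdk2, a kinase that turns off pyruvate dehydrogenase, had medians of 204 and 55.3 RPM.

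Glycogen genes were led in the GFP sort by Pygb, the brain form of glycogen phosphorylase, with 255 to 739 RPM (median 621) against 31.6 to 313 RPM in mCh (median 82.0). Ppp1r3c had 154 to 620 RPM in GFP (median 499) and 0 to 109 RPM in mCh (median 42.9), with no overlap. Ugp2, which makes UDP-glucose for glycogen, had medians of 316 and 81.2 RPM. Pygm had medians of 74.7 and 5.13 RPM, glycogen synthase 1 (Gys1) 23.3 and 4.81 RPM, the branching enzyme Gbe1 29.4 and 17.5 RPM, and the liver phosphorylase Pygl 7.05 and 2.27 RPM.

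**Figure D1:**
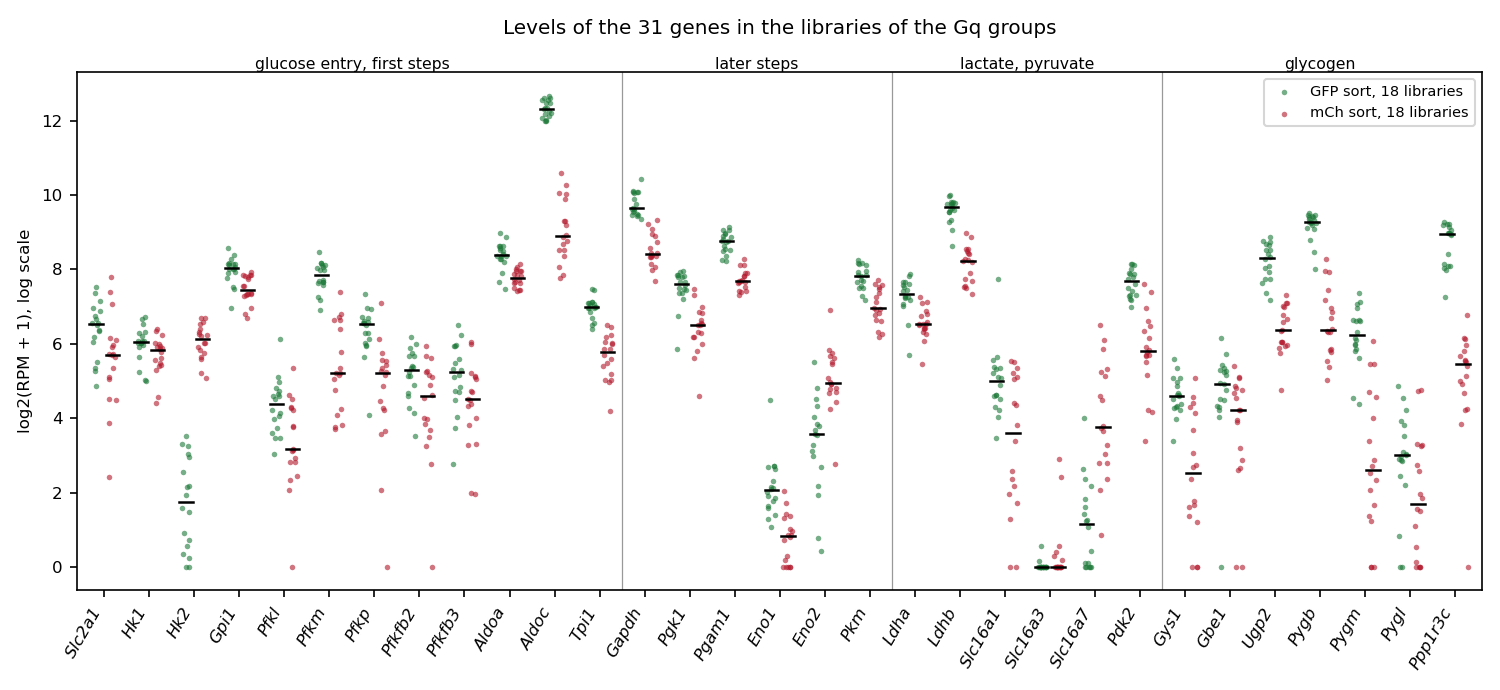
Levels of the 31 genes as log2(RPM + 1), with 1 point for each of the 18 GFP and 18 mCh libraries of the Gq groups, a black line at the median, and bands by role. Aldoc stands highest in GFP, and the mCh points of Hk2 lie wholly above its GFP points.

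Shares of a family's reads were computed per kilobase within a library. Hk1 made up 81.3 to 100% of the Hk1 and Hk2 reads in the 18 GFP libraries (median 95.6%) and 17.3 to 61.9% in the 18 mCh libraries (median 44.1%). Aldoc made up 91.7 to 96.8% of the aldolase A and C reads in GFP (median 93.4%) and 53.9 to 86.0% in mCh (median 68.8%). Neither of these shares overlapped between the sorts. Ldhb held 83.0 to 96.2% of the Ldha and Ldhb reads in GFP (median 88.5%) and 74.5 to 90.3% in mCh (median 81.5%), so in both sorts Ldhb exceeded Ldha. Pfkm had the largest median share of the phosphofructokinase reads in both sorts, at 72.5% in GFP and 59.7% in mCh. In hippocampal mCh Pfkm and Pfkp were close, with medians of 41.9% and 39.6%, and in its Gq-CNO group Pfkp led with 70.6% against 22%. Among the phosphorylases Pygb led, with medians of 83.5% and 88.4%, and Pygm followed with 15.3% and 6.92%. In the 6 mCh astrocyte libraries Hk1 was only 5.55 to 43.7% (median 16.5%), and Aldoc 58.7 to 85.9% (median 80.3%). These shares are descriptions, with no test.

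**Figure D2:**
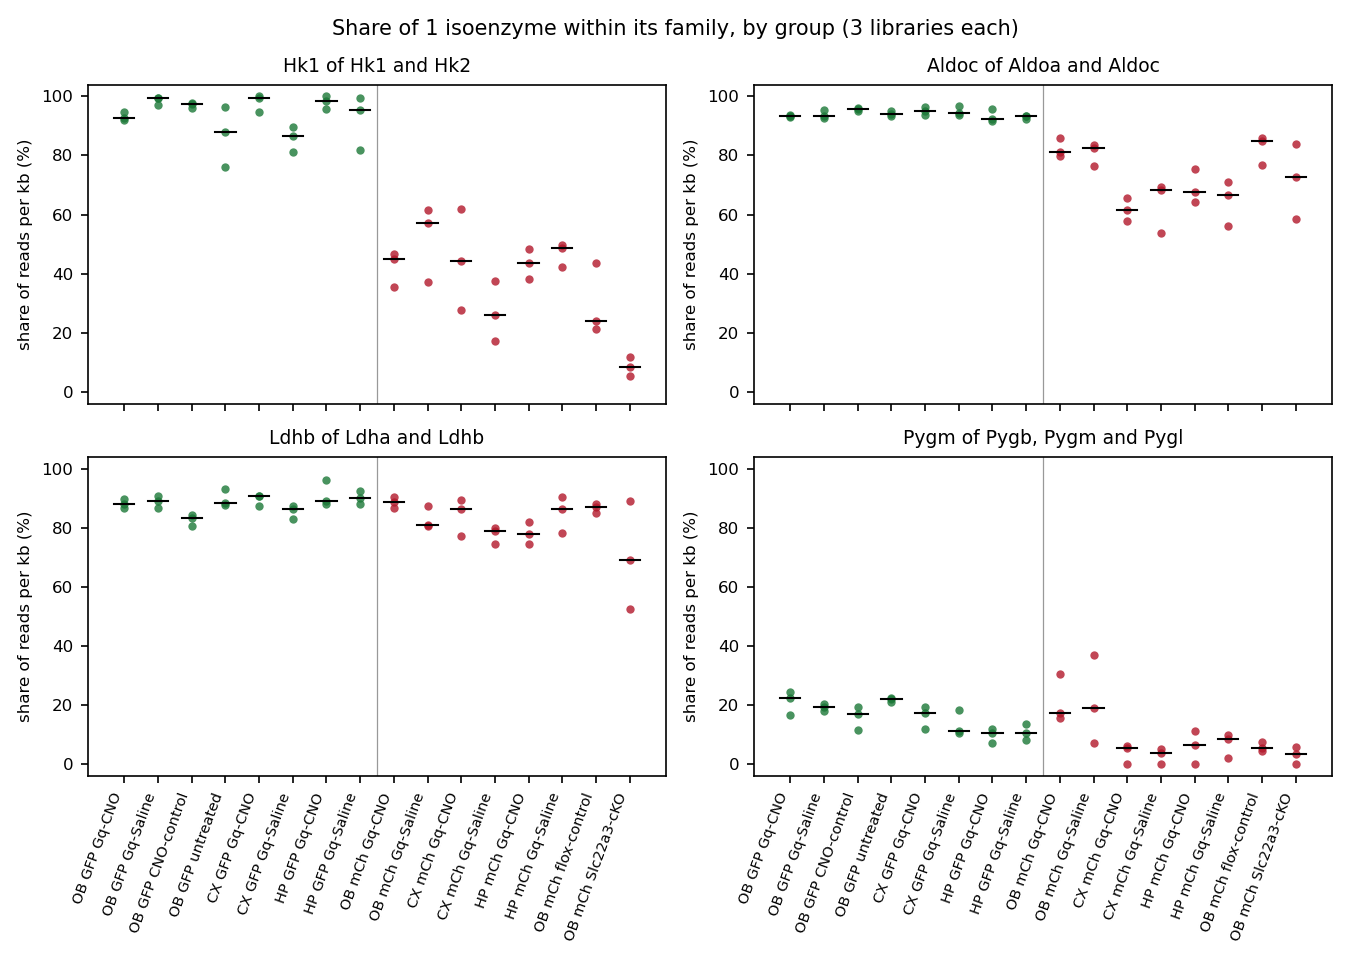
Share of reads per kilobase taken by 1 isoenzyme of its family (%), in the 16 groups of 3 libraries each; points are libraries, black lines medians, green GFP and red mCh. The Hk1 and Aldoc shares are higher in every GFP library of the Gq groups than in any mCh library, while the Ldhb shares overlap.

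The GFP and mCh sorts of each region were compared across 6 libraries each with limma on log2(RPM + 1), with p-values adjusted over all genes by the Benjamini-Hochberg method and a threshold of 0.05. Most glycolytic and glycogen genes were higher in GFP. In olfactory bulb 17 of 30 tested members were higher and 2 lower, against a background of 14.5% of all genes higher and 18.3% lower (32.8% called). In cortex 16 of 29 were higher and 3 lower (background 11.3% and 17.3%, 28.6% called), or 21 called in all without the GFP library numbered 4 of Gq-Saline, and in hippocampus 17 of 29 were higher and 3 lower (background 13.2% and 20.7%, 33.9% called). Members' median log2 differences were 1.01, 1.61 and 1.01 in these regions, beside 0.00, -0.10 and -0.12 over all genes tested. A gene enters the test through either sort, so one abundant in only 1 sort can hardly fail to differ. Slc16a3 was tested in no region and Eno1 in olfactory bulb only. In all 3 regions 13 members were higher and 2 were lower, and 7 members were called in none.

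Aldoc averaged 4288 ± 227 RPM (SD, n = 6) in GFP and 1077 ± 302 RPM in mCh of olfactory bulb, a difference of 2.04 on the log2 scale (SE 0.15; limma adjusted p = 5.64e-11). In cortex its means were 5898 ± 486 and 381 ± 148 RPM (log2 difference 4.03, SE 0.20; limma adjusted p = 4.02e-12). In hippocampus they were 5359 ± 606 and 418 ± 124 RPM (log2 difference 3.73, SE 0.16; limma adjusted p = 1.39e-15). Every GFP library exceeded every mCh library in each region. Pfkm was higher by 1.35, 2.93 and 3.00 in olfactory bulb, cortex and hippocampus, and Tpi1 by 1.08, 1.65 and 1.2. Pfkp was higher by 1.14, 2.92 and 0.97, of which the hippocampal call was lost in 7 of 19 other settings. Of 12 early-step members, 6, 5 and 6 were called higher in the 3 regions.

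Hk2 went the other way in every region. It averaged 3.26 ± 3.09 RPM in GFP and 64.5 ± 22 RPM in mCh of olfactory bulb (SD, n = 6), 4.22 ± 3.84 and 72.7 ± 30 RPM in cortex, and 2.95 ± 3.91 and 69.2 ± 11 RPM in hippocampus. The log2 differences were -4.20 (SE 0.43), -4.18 (SE 0.64) and -4.66 (SE 0.62), with limma adjusted p of 2.37e-08, 2.79e-05 and 1.4e-06. Its partner Hk1 differed by 0.41, 0.58 and -0.04, with limma adjusted p of 0.203, 0.367 and 0.946. Beside the lower Hk2 in GFP stand the microglia markers, whose sums were 92.1 to 3066 RPM in GFP and 4688 to 15382 RPM in mCh, and the oligodendrocyte markers, with 749 to 3209 and 18277 to 60108 RPM. Their part in the Hk2 difference was not tested.

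Of the later steps, Gapdh (0.78, 1.51 and 1.43), Pgam1 (1.01, 1.05 and 0.93) and Pkm (0.53, 1.04 and 0.81) were higher in GFP of olfactory bulb, cortex and hippocampus. Eno2 was lower by limma in each, with log2 differences of -1.47, -2.31 and -1.55 and adjusted p of 0.00377, 0.0352 and 0.029. Its cortical call was lost in 11 of 20 other settings and its hippocampal call in 7 of 19, and the libraries of the sorts overlapped in every region. Neuron markers summed to 584 to 1663 RPM in GFP and 1787 to 5189 RPM in mCh; their part in the Eno2 difference was not tested.

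Ldhb was higher in GFP by 1.17 (SE 0.13), 1.45 (SE 0.25) and 1.73 (SE 0.17), with limma adjusted p of 1.19e-07, 9.49e-05 and 9.8e-09. The libraries did not overlap in any region. Ldha was called in olfactory bulb (0.86), and its limma adjusted p was 0.0799 in cortex (0.75) and 0.159 in hippocampus (0.57). By edgeR it was called in those regions too, with 1.01 (adjusted p = 0.0255) and 0.81 (0.0481). Pdk2 was higher by 1.45, 2.05 and 1.96. Slc16a7 was lower in GFP of cortex (-3.99; limma adjusted p = 0.000704) and hippocampus (-3.79; adjusted p = 0.000134). In olfactory bulb it differed by -0.77 with a limma adjusted p of 0.377. Slc2a1 was called higher in cortex (1.95; limma adjusted p = 0.0101), where the sorts overlapped, and had adjusted p of 0.678 in olfactory bulb and 0.112 in hippocampus.

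All 7 glycogen members had positive differences in each region, and 4, 5 and 5 of them were called. Their median differences were 1.62, 2.95 and 2.73. Ppp1r3c averaged 248 ± 48 RPM in GFP and 53.6 ± 29.3 RPM in mCh of olfactory bulb (SD, n = 6), 472 ± 66.1 and 23.7 ± 23.5 RPM in cortex, and 582 ± 31.8 and 49.4 ± 13.0 RPM in hippocampus. The log2 differences were 2.31 (SE 0.23), 5.02 (SE 0.58) and 3.57 (SE 0.22), with limma adjusted p of 2.17e-08, 8.55e-07 and 1.72e-12. Pygm was higher by 1.91, 4.73 and 3.57, and Pygb by 1.91, 3.20 and 2.73. Ugp2 was higher by 1.62, 1.70 and 2.14. Gys1 was called in cortex (2.95) and hippocampus (3.15) and had 0.26 in olfactory bulb (limma adjusted p = 0.69). With all libraries, limma called Gbe1 and Pygl in no region. Gbe1 was called in cortex (2.56; limma adjusted p = 0.019) without the Gq-Saline GFP library numbered 4, and in olfactory bulb (1.19 to 1.40) without mCh Gq-CNO replicate 3, Gq-Saline replicate 1 or Gq-Saline replicate 3. Pygl was called in hippocampus (2.03 and 2.06) without the GFP library numbered 4 of either treatment, and in olfactory bulb (1.72) without mCh Gq-CNO replicate 1.

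The mCh libraries of all 3 regions came from 1 table and the GFP libraries from 1 table per region, so sort and table cannot be told apart here. Counts of members whose libraries did not overlap between sorts were 16 in olfactory bulb, 11 in cortex and 15 in hippocampus, beside 16.8%, 15% and 18.4% of all genes tested. Of 110 other genes of these pathways, 22 of 82 tested were higher and 10 lower in olfactory bulb, 19 and 8 of 76 in cortex, and 27 and 9 of 80 in hippocampus. The fructose carrier Slc2a5, known from microglia, had log2 differences of -4.49, -5.07 and -4.32. The phosphorylase kinase subunit Phka1 was higher by 1.72, 3.48 and 2.69. Dlat, a subunit of pyruvate dehydrogenase, was higher by 1.26, 2.04 and 1.39.

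**Figure D3:**
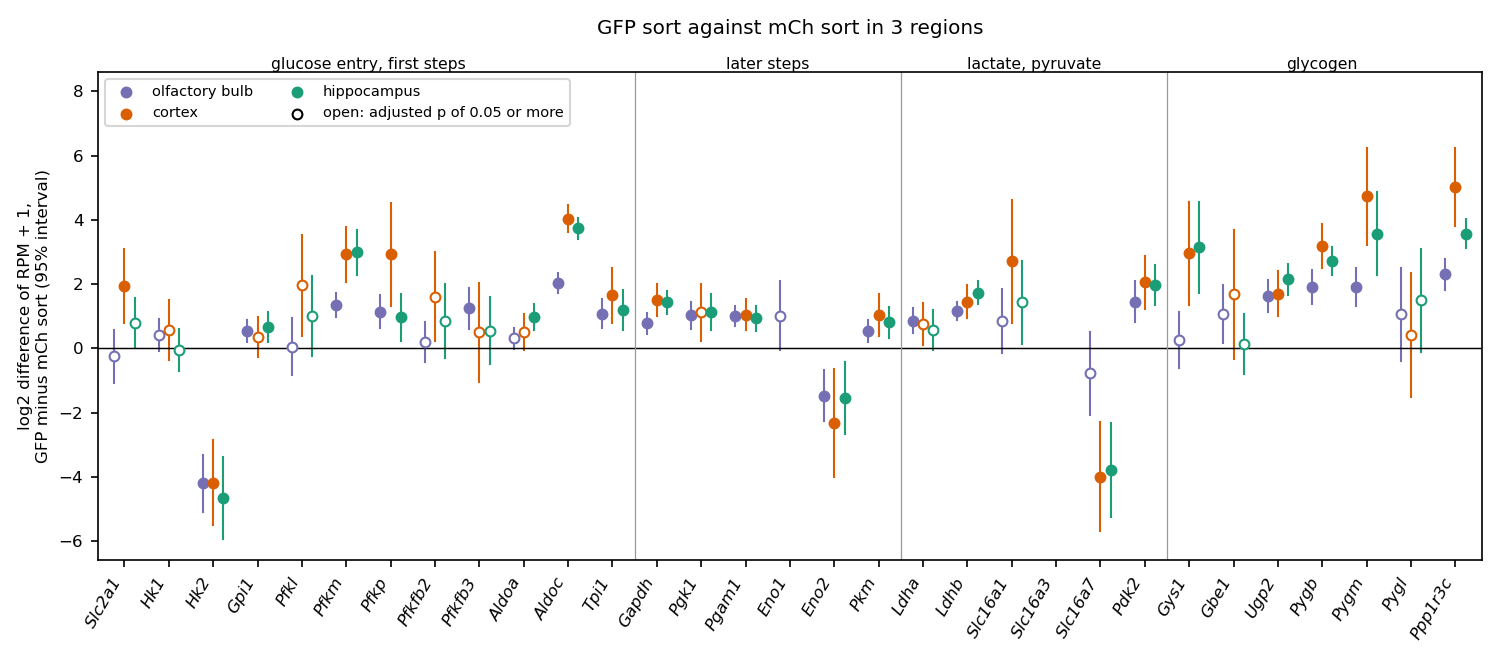
Log2 difference of RPM + 1, GFP minus mCh, with 95% interval, for each member in olfactory bulb, cortex and hippocampus; filled points have a limma adjusted p under 0.05, open points do not, and members not tested are blank. Hk2 lies below -4 in all 3 regions, and the glycogen members lie above 0.

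Whether the size of the sort difference varied by region was tested as an interaction over all 36 libraries, a test added after the data had been seen. Between olfactory bulb and cortex 4 of 30 members had a smaller difference in olfactory bulb and 0 a larger one, against a background of 1.62% smaller (2.95% called). They were Aldoc (-1.99; limma adjusted p = 2.32e-06), Ppp1r3c (-2.72; 0.0038), Pygm (-2.82; 0.0279) and Pfkm (-1.58; 0.0407). Between olfactory bulb and hippocampus Aldoc (-1.69; 5.46e-05) and Pfkm (-1.65; 0.0466) were smaller in olfactory bulb, with a background of 0.835% (1.48% called). Aldoc and the Ppp1r3c call against cortex held in all 44 other settings. Pfkm was lost in 15 and 23 of the 44, and Pygm in 10. The 6 cortex mCh libraries held 0 to 10 reads of Pygm, and with a pseudocount of 10 its value was -0.996 (limma adjusted p = 0.253). Slc16a7 went the other way between olfactory bulb and cortex: its value was 3.22 by limma (adjusted p = 0.0664), and edgeR called it, with 6.20 (adjusted p = 0.00862). The 6 cortex GFP libraries held 0 to 36 reads of it. Against hippocampus Slc16a7 had 3.02 by limma (adjusted p = 0.151) and 5.23 by edgeR (0.0184). Between olfactory bulb and cortex edgeR also called Pygb, with -1.70 (adjusted p = 0.00927), and Slc2a1, with -2.49 (0.0338). Between cortex and hippocampus limma called 0 members (background 0.0546%), with 2 at an unadjusted p under 0.05, beside 990 of all 12821 genes. EdgeR called 1 gene of all tested. The astrocyte markers moved with region as well: their sums were 54819.9 to 63536 RPM in GFP of olfactory bulb, 80098 to 130819 in cortex and 91403 to 118985 in hippocampus. In mCh they were 7689 to 23552, 5353 to 9524 and 6520 to 10829 RPM in that order. Their part was not tested.

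Within the GFP sort, olfactory bulb was compared with cortex and hippocampus over 6 libraries each. Each region had its own table in this sort, so region and table cannot be told apart. Aldoc was lower in olfactory bulb: its 6 libraries had 4049 to 4613 RPM (median 4225), those of cortex 5191 to 6543 (median 5848) and those of hippocampus 4728 to 6240 (median 5128). No olfactory bulb library reached the range of the other regions. The log2 difference was -0.46 from cortex (limma adjusted p = 0.00148) and -0.32 from hippocampus (adjusted p = 0.0365, lost in 13 of 26 other settings). Ppp1r3c had 154 to 281 RPM in olfactory bulb, 338 to 507 in cortex and 532 to 620 in hippocampus, with differences of -0.94 (limma adjusted p = 0.000554) and -1.25 (1.91e-05). Its 3 regions did not overlap. Ugp2 (-0.94; 0.00444) and Pdk2 (-0.78; 0.00798) were lower than in hippocampus, by limma.

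A few members were higher in GFP of olfactory bulb. Ldhb exceeded cortex (862 to 1006 against 392 to 798 RPM; 0.57, limma adjusted p = 0.0203), a call lost in 9 of 26 other settings. Pygm exceeded hippocampus (96.1 to 163 against 20 to 78.6 RPM; 1.26, limma adjusted p = 0.033), lost in 11 of 26. Pgam1 exceeded hippocampus by 0.50 (limma adjusted p = 0.0483), lost in 20 of 26. In all, 1 of 29 members was higher and 2 lower against cortex, beside a background of 4.79% and 1.51% (6.31% called). Against hippocampus 2 were higher and 4 lower, beside 3.34% and 1.52% (4.87% called). The median over all genes was itself 0.37 against cortex and 0.21 against hippocampus on this scale, and 0.04 and -0.02 with edgeR's scaling. Between cortex and hippocampus limma called 0 members (background 0.245%), with 2 at an unadjusted p under 0.05, beside 1128 of all 11036 genes.

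Within the mCh sort every called member was higher in olfactory bulb. Against cortex these were 8 of 29 (background 5.83% higher, 8.85% called), and against hippocampus 4 of 29 (background 2.48% higher, 4.22% called). Over all genes the median was itself 0.34 against cortex, with 65.4% of genes higher, and 0.12 against hippocampus, with 57.1% higher. With edgeR's scaling these medians were 0.15 and 0.00. Aldoc had 627 to 1543 RPM in olfactory bulb (median 1057), 231 to 630 in cortex (median 347) and 217 to 588 in hippocampus (median 424). The differences were 1.53 (limma adjusted p = 6.98e-06) and 1.38 (5.79e-05), and only 1 cortex library reached the olfactory bulb range. Pygm had 15.1 to 65.8 RPM in olfactory bulb, 0 to 4.08 in cortex and 0 to 9.52 in hippocampus, with differences of 3.80 (limma adjusted p = 0.000782) and 2.92 (0.018). Pfkm was higher by 1.96 and 2.22. Against cortex limma also called Pygb (1.70), Pfkp (2.28), Ldhb (0.86), Pkm (0.92) and Ppp1r3c (1.78), and against hippocampus Gys1 (2.67). Of 25 other settings, the Ppp1r3c call was lost in 13, Gys1 in 11, Pkm in 6, Pygm against hippocampus in 4, Pfkp in 2 and Ldhb in 1. DESeq2 called Pygb (1.12; adjusted p = 0.0201) and Ldhb (0.65; 0.0285) against hippocampus as well. Between cortex and hippocampus themselves limma called 0 members (background 0.418%) and 4 had an unadjusted p under 0.05, beside 1259 of all 11957 genes. The astrocyte marker sums given above were also highest in mCh of olfactory bulb, and their part was not tested.

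CNO without the Gq label was compared with no treatment in olfactory bulb GFP astrocytes, on the normalised counts of their table as log2(value + 1). Of 29 members tested, 11 fell and 1 rose, against a background of 6.88% lower and 5.29% higher (12.2% called) over 10940 genes. The members' median was -0.48, beside 0.11 for all genes (0.00 with edgeR's scaling), and 17 of 29 had groups that did not overlap, beside 32.9% of all genes. By role, 5 of 11 early-step members fell, 3 of 6 late-step members, 1 of 5 for lactate and pyruvate and 2 of 7 for glycogen.

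Ldhb had normalised counts of 1111, 945 and 911 with CNO-control and 2517, 2209 and 2316 untreated, a log2 change of -1.25 (SE 0.14; limma adjusted p = 0.000298). Gapdh had 1253, 1139 and 1115 against 2193, 2189.6 and 2659.7 (-1.0, SE 0.14; limma adjusted p = 0.000905). Aldoa had 465, 469 and 437 against 814, 1047 and 902 (-1.0, SE 0.17; limma adjusted p = 0.00311). In each of these the CNO-control libraries lay wholly below the untreated ones. Aldoc had 10815, 8903 and 9344 against 15408, 14202 and 13669 (-0.58, SE 0.11; limma adjusted p = 0.00615). With quantile normalization the Aldoc change was -0.06 (limma adjusted p = 0.691), so its call was lost under that scaling. Pfkl had 22, 34.9 and 48.5 against 88.9, 146 and 133 (-1.81, limma adjusted p = 0.0224), a call lost in 4 of 12 other settings.

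The other members that fell by limma were Tpi1 (-1.22), Pkm (-0.93), Pfkm (-0.85), Pgk1 (-0.81), Pygm (-1.04) and Ppp1r3c (-0.70). Of 12 other settings, Pfkm, Pygm and Ppp1r3c each lost their call in 2, and Tpi1 and Pgk1 each in 1. Slc16a7 was the 1 member that rose, with 78.3, 142 and 95.5 against 35.6, 37.0 and 36.4 (1.47; limma adjusted p = 0.044), a call lost in 7 of 12 other settings. Gpi1 (-0.54), Pgam1 (-0.56) and Pygb (-0.48) had limma adjusted p of 0.0577, 0.0569 and 0.0547. Leaving out 1 library gave 6 to 13 called members, with 6 when CNO-control replicate 3 was left out. Of the other pathway genes 5 rose and 11 fell of 80 tested. Those that fell included Mpc1 (-1.50) and Mpc2 (-1.28), the mitochondrial pyruvate carrier, Mdh2 (-1.04), a malate dehydrogenase, and Pdk1 (-1.14).

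Other features of these 6 libraries also differed between the groups, so treatment cannot be told apart from them. The nuclear RNA Malat1 had 23725 to 41045 RPM with CNO-control and 2545 to 4276 RPM untreated, and Xist 1740 to 2832 against 6.41 to 369 RPM. The sum of 11 immediate early genes was 777 to 1285 against 111 to 285 RPM, and that of 12 microglia markers 108 to 185 against 584 to 739 RPM. Depth was 6619479 to 8577907 reads against 1724893 to 2964862. Their part in the lower glycolytic genes was not tested.

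**Figure D4:**
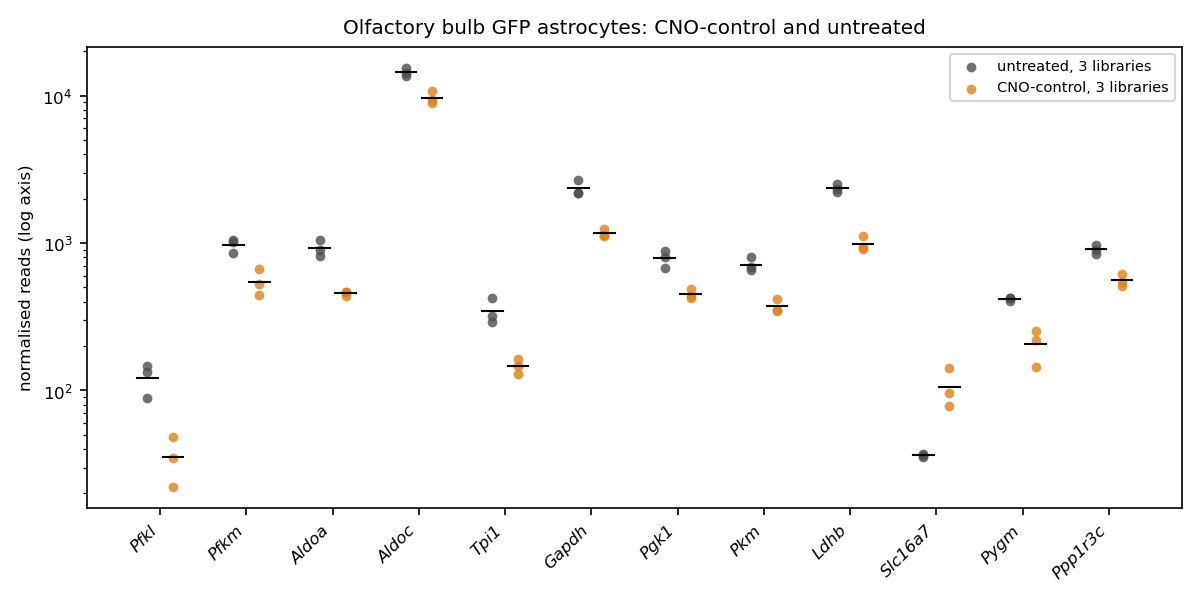
Normalised counts (log axis) of the 12 members called between CNO-control (orange) and untreated (grey) olfactory bulb GFP astrocytes; points are the 3 libraries of each group and lines their means. In 11 genes the CNO-control points lie lower, and in Slc16a7 they lie higher.

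CNO was compared with saline in the Gq groups within each sort and region. Limma called 0 members in all 6 comparisons, of 30, 29 and 30 tested in GFP of olfactory bulb, cortex and hippocampus and 29, 27 and 27 in mCh. The background was 0.00847% (1 gene of 11810) in GFP of olfactory bulb and 0.0% in the other 5. At an unadjusted p under 0.05 there were 1, 0 and 0 members in GFP and 1, 1 and 3 in mCh. All genes at that p numbered 564 of 11810, 142 of 9978 and 234 of 11519 in GFP. In mCh they were 556 of 10492, 428 of 9392 and 445 of 9808. EdgeR called 0 genes in each comparison. DESeq2 called 0 members in each.

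The intervals show which changes remain possible. In olfactory bulb GFP astrocytes the 95% interval lay within 1 log2 unit of 0 for 22 of 30 members, against 9 of 29 in cortex and 14 of 30 in hippocampus. Aldoc had normalised counts of 37995, 37019 and 33827 with CNO and 32324, 32530.5 and 34640.4 with saline (0.13, interval -0.08 to 0.33). Ldhb had 8289.9, 7333 and 6814 against 6949, 7009 and 7476 (0.06, interval -0.21 to 0.33). Ldha had 1593, 1664 and 1773 against 1808, 1462 and 1298 (0.15, interval -0.24 to 0.54). The groups overlapped for all 3 genes. Of the glycogen genes, Pygb differed by -0.01 (-0.30 to 0.28), Pygm by 0.15 (-0.33 to 0.63) and Ppp1r3c by -0.20 (-0.62 to 0.23). In mCh the intervals were wider, with 9 of 29, 2 of 27 and 7 of 27 members within 1 log2 unit.

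Hk2 had the largest difference in olfactory bulb GFP, with 39.7, 28.9 and 67.3 normalised counts with CNO against 14.0, 2.15 and 5.55 with saline (2.69, interval 0.30 to 5.08; limma adjusted p = 0.996). In cortex GFP it lay the other way, with 8.37, 1.9 and 0 against 34.7, 29.5 and 30.2 (-3.43; limma adjusted p = 0.91). Between tables the effects were compared on another scale, log2(RPM + 1). There the olfactory bulb effect exceeded the cortex effect by 4.19, with an unadjusted p of 0.0021 and a limma adjusted p of 0.998. Limma called 0 members and 0.0% of all genes for any difference of the Gq-CNO effect between regions, in either sort. The other pathway genes likewise had 0 calls, of 66 to 82 tested.

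**Figure D5:**
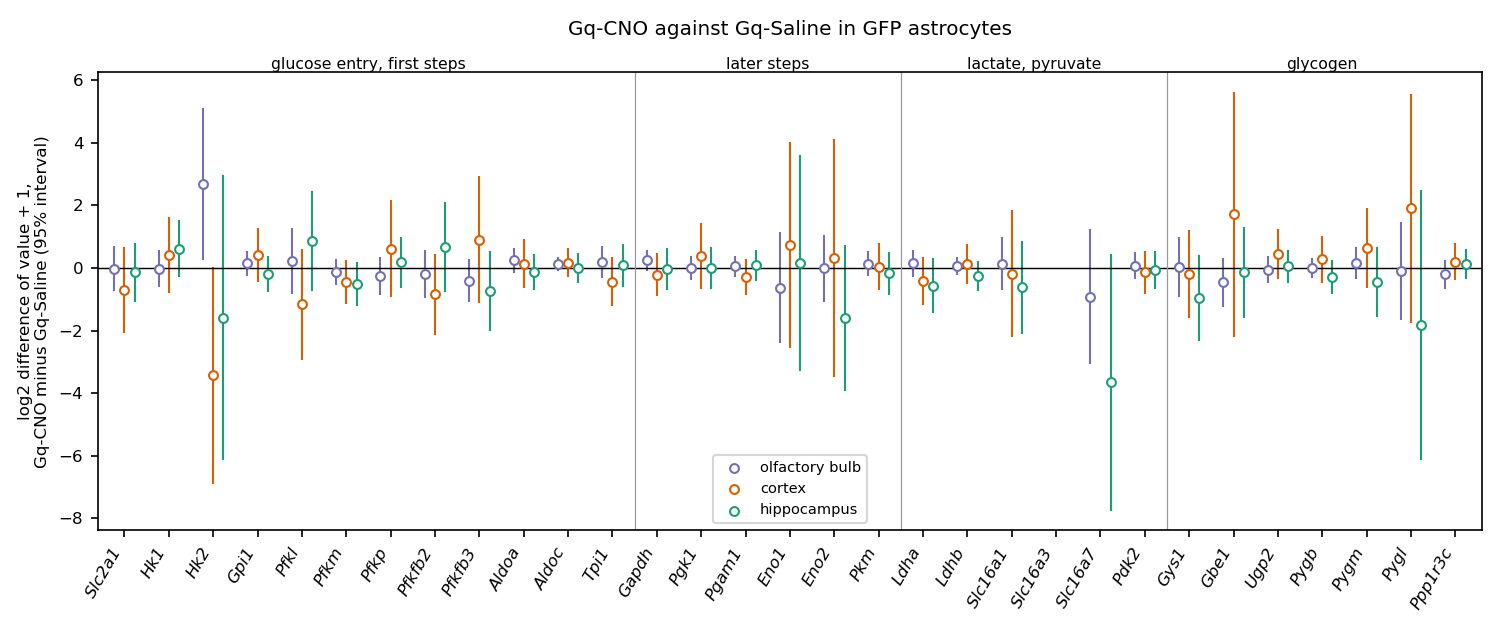
Log2 difference of normalised counts + 1, Gq-CNO minus Gq-Saline, with 95% interval, in GFP astrocytes of 3 regions; every point is open because no limma adjusted p was under 0.05. Aldoc and Ldhb have short intervals around 0, while Hk2, Eno1, Gbe1 and Pygl have long ones.

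In the Slc22a3-FF mice the targeted gene itself, an organic cation transporter, gave no check of the labels: it had 0, 0 and 12 reads in the Slc22a3-cKO libraries and 0, 0 and 0 in the flox control. Limma called 0 of 30 members, beside a background of 2.53% (341 of 13465 genes, 1.37% higher and 1.17% lower). At an unadjusted p under 0.05 there were 7 of 30 members, beside 2482 of all 13465 genes. EdgeR called 0 members, beside 277 genes in all. DESeq2 called 3 members (Pfkm, Pfkp and Pfkfb3), beside 1154 genes in all. The members' median was -0.14, beside -0.10 over all genes, and 7 of 30 had groups that did not overlap, beside 22.7% of all genes.

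Pfkfb3 (chr2:11471433-11554077, minus strand) had the smallest p, with normalised counts of 3893, 4514 and 2706 in Slc22a3-cKO and 1525, 812 and 1942 in the flox control. Every Slc22a3-cKO library was above every control library (1.43, SE 0.36; limma adjusted p = 0.0596). Hk2 had 1988, 2331 and 1058 against 893, 575 and 1342, which overlap (0.94; limma adjusted p = 0.23). Pfkm had 141, 95.1 and 172 against 447, 621 and 259.9 (-1.65; limma adjusted p = 0.0981). Hk1 had 197, 143 and 147 against 252, 468 and 444 (-1.21; limma adjusted p = 0.179). Without Slc22a3-cKO replicate 3 limma called 5 members: Pfkfb3 (1.64), Ldha (1.85), Pfkm (-1.84), Pdk2 (-2.15) and Eno2 (-4.65). Of the other pathway genes 1 of 87 was called, the phosphoglucomutase relative Pgm2l1 (-1.53; limma adjusted p = 0.032).

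Marker sums of these 6 libraries differed too. Neuron markers summed to 419 to 1309 RPM in Slc22a3-cKO and 1692 to 5592 RPM in the flox control. Astrocyte markers summed to 1951 to 6220 against 6826 to 13804 RPM, and oligodendrocyte precursor markers to 6.02 to 22.7 against 89.0 to 319 RPM. Xist had 6706 to 11181 against 4056 to 6565 RPM. The part of these features in the values above was not tested. Against the mCh libraries of the Gq groups these 6 stood out in level for some members, given as values only since they came from another table. Pfkfb3 had 90.2 to 412 RPM here and 2.92 to 65.5 RPM there, and Hk2 63.9 to 213 against 32.9 to 103 RPM. Immediate early genes summed to 4614 to 7380 RPM here and 115 to 513 RPM there. Malat1 had 16524 to 57279 RPM here and 662 to 3897 RPM there, and Xist 4056 to 11181 against 0 to 254 RPM.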

How the data were processed

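The authors sequenced paired-end libraries made from 10 ng of total RNA with the Trio RNA-Seq system, per the labels' protocols. STAR 2.5.0a, DESeq2 1.30.1, FastQC 0.11.7, MultiQC 1.11 and build mm10 are named in the submitters' processing notes. The deposited signal is gene counts divided by 1 size factor per library. Dividing each column by its smallest positive value gave whole reads for 100% of values (tolerance 0.05). Within a table, limma 3.58.1 (trend, R 4.3.3) was run on log2(value + 1) keeping genes that reached 10 in at least 3 libraries. Between tables it was run on log2(RPM + 1) with at least 5 RPM in 3 libraries. RPM totals include the ribosomal entry Rn45s, 8.00 to 23.1% of a library's reads. Fold changes on these scales understate the change of low genes. Benjamini-Hochberg adjustment covered all genes tested. Calculations were tested on simulated data. Alternatives were edgeR 4.0.16 and DESeq2 1.42.0 on recovered reads, other pseudocounts, filters and scalings, a replicate block and left-out libraries. Members and lists were chosen with earlier results of these data known. All members may be named, and of each other pathway list up to 4 genes per comparison with the smallest p. In the cortex and hippocampus GFP tables, 4 columns carry a replicate number, 4, that no sample title has; they entered by group.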

Additional observations from a re-analysis of the deposited data

Results flagged for a closer look

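The difference between the GFP and mCh sorts was itself different between regions for 4 members, by limma's test of the interaction over 36 libraries with Benjamini-Hochberg adjustment. This test was added after the data had been seen. Olfactory bulb minus cortex was -1.99 on the log2 scale for Aldoc, -2.72 for Ppp1r3c, -2.82 for Pygm and -1.58 for Pfkm. Olfactory bulb minus hippocampus was -1.69 for Aldoc and -1.65 for Pfkm. The Pygm value was -0.996 with a pseudocount of 10 (limma adjusted p = 0.253). Of 44 other settings, Pygm lost its call in 10, and Pfkm in 15 against cortex and 23 against hippocampus. In each case the GFP sort exceeded the mCh sort in both regions, by less in olfactory bulb.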

How the results depend on the processing

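Across the other settings, 2043 values were recomputed for genes called here: 1839 kept their call, 204 lost it in the same direction and 0 changed direction. Counts of called members moved by over 1.5 times in these cases, and the cause was not tested. For Slc22a3-cKO against flox control, the count of 0 became 1 with a pseudocount of 10, 3 with DESeq2 and 0 to 5 with 1 library left out. For GFP olfactory bulb against cortex, 3 became 7 without the libraries numbered 4, an alternative added after seeing the data, and 2 to 5 with 1 library left out. For GFP olfactory bulb against hippocampus, 6 became 3 with the replicate block and 3 to 7 with 1 left out. For CNO-control against untreated, 12 became 6 to 13 with 1 left out. For mCh olfactory bulb against hippocampus, 4 became 2 to 5, and for mCh cortex against hippocampus 0 became 0 to 2. For the sort difference of olfactory bulb minus cortex, 4 became 7 with edgeR, 8 with DESeq2 and 2 to 6 with 1 left out. For olfactory bulb minus hippocampus, 2 became 1 with no low-value filter, 5 with DESeq2, 1 with the replicate block and 1 to 3 with 1 left out.

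Replicate numbers were not taken to pair the libraries, since in no comparison did every same-numbered pair correlate above 0.1: deviations correlated at -0.138 to 0.108 over 70 such pairs and at -0.114 to 0.193 over 164 others. As a hint from the data, same-numbered pairs had 0.068 to 0.093 in hippocampal GFP Gq-CNO and Gq-Saline, where other pairs had -0.092 to 0.057, and 0.052 to 0.108 between cortex and hippocampus GFP (others -0.114 to 0.078). The block moved no other count of called members by over 1.5 times. Between the sorts it added Gbe1 (3.55), Aldoa (0.95) and Pgk1 (1.82) in cortex and Pygl (3.06) and Ldha (1.01) in hippocampus, and Gys1 (2.30), Slc16a1 (2.09) and Eno2 (-1.91) in cortex lost their calls. For the sort difference of olfactory bulb minus cortex 1 member, Slc16a7, was called in the opposite direction by edgeR and by DESeq2. Depth limits low genes most: the shallowest library held 228048 reads, and single reads decide members such as Slc16a3, Pygl and Hk2 in GFP. Members that share the most sequence with other genes (Gapdh, Eno1, Pgk1, Pgam1, Pkm) are uncertain as levels, and Ldhb, Gpi1, Pfkfb2, Pfkp and Ldha share less.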
